A study of Homo sapiens with 6 samples.

Results

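Ribosomal protein pseudogenes are copies of the genes for the proteins of the cytosolic ribosome, and 28 of them carried enough counts to be described in Jurkat cells. They were chosen from 60856 listed features by 3 criteria: a symbol made of a ribosomal protein name, a P and a number, an annotation as a pseudogene, and a mean estimated count of at least 20 over 6 libraries. Of 1588 pseudogenes with such a name and class, 989 were listed at 0 in every library and 571 more were above 0 with a mean under 20. The count threshold is thus a measured value that chose the members, and their abundance is given as a description. Just inside it lay RPS3AP6, with a mean count of 20.8, and RPL21P118, with 22.7. Just outside lay RPS3AP26, with 16.6, and RPL4P2, with 15.7.

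Jurkat is an established human line of leukemic T lymphocytes, labelled here as WT, and all values come from this 1 line at 1 concentration. In 3 libraries the cells had received 0.1% dimethyl sulfoxide (DMSO, the vehicle), and in 3 they had received 1 µM BPAF, bisphenol AF, a fluorinated relative of bisphenol A. The labels disagree on the exposure time: sample labels and design text have 12 h, and the treatment protocol has 24 h. RNA with a poly(A) tail was captured on oligo(dT) beads and read as stranded read pairs, and the 3 libraries per group are named biological replicates in the design text, without saying that they came from separate cultures or days.

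Most ribosomal protein pseudogenes are processed: a spliced messenger RNA was copied back into DNA and inserted elsewhere in the genome, without introns and usually without a promoter of its own. Such a copy is transcribed mainly where it lands in or near something that is transcribed, such as the intron or the untranslated exon of another gene. Young copies are nearly letter-identical to the messenger RNA of the parent gene, which is among the most abundant in any growing cell, so that a short read can match both. Older copies have collected substitutions that mark their own reads.

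The 28 members came from 20 parent genes and lay on 18 chromosomes. RPL23A had 4 members, 5 parents had 2 each and 14 had 1. The annotation (GENCODE release 29, GRCh38) classed 19 as processed, 6 as transcribed processed, 2 as transcribed unprocessed and 1 as unprocessed pseudogenes. Identity with the parent transcript ranged from 78.3% to 100%, with a median of 91.5%. For identity and shared letters, 1 annotated transcript of each pseudogene was used. For 7 members (RPL32P3, RPS10P7, RPL23AP82, RPL23AP53, RPL23AP7, RPL13P5 and RPL9P9) the annotated exons are longer than that transcript. These lengths are those of GENCODE release 29, and the rows the authors counted may have other extents. Identity and shared letters thus need not cover all counts of a member, also beyond these 7. Every run of 50 bases in the transcript used was looked up letter for letter in all annotated transcripts. In 10 members no such run occurred in the parent, in 4 every run did (RPL36AP37, RPL39P3, RPL21P16 and RPS28P7), and 6 had no run that was found in no other gene. Values of those 6, and in part of every member with shared runs, depend on how the authors' counting divided reads between copies, and no source used here gives that rule. Estimated counts carried decimals in at least 1 library for 25 of the 28, against 64.4% of all tested genes.

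The stretches below show the range of likeness that the later comparisons turn on. Capitals mark the bases at which pseudogene and parent differ, all sequences run 5′ to 3′ on the transcribed strand, and both come from GENCODE release 29 transcripts on GRCh38. RPS26P19 (chr2:127846974-127847003, minus strand) and the coding sequence of RPS26, bases 73 to 102, differed at 6 of 30 positions.
RPS26P19: aactgtgGTTgTtgTgtgcccaaTgacaag
RPS26: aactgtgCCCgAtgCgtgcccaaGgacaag
RPS16P5 (chr6:53337216-53337305, minus strand) and RPS16, coding bases 60 to 149, differed at 19 of 90 positions.
RPS16P5: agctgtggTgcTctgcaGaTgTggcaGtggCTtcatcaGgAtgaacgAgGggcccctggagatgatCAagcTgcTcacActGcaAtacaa
RPS16: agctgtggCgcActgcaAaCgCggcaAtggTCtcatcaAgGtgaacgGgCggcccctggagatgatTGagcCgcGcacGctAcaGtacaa
RPS3AP19 (chr4:9563207-9563296, plus strand) and RPS3A, coding bases 37 to 126, differed at 9 of 90 positions.
RPS3AP19: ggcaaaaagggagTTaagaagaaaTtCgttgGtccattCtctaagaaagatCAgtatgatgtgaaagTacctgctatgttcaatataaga
RPS3A: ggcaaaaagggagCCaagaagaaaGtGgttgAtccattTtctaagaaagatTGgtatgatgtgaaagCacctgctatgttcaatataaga
RPL23P2 (chr21:28997812-28997901, minus strand) and RPL23, coding bases 135 to 224, differed at 7 of 90 positions.
RPL23P2: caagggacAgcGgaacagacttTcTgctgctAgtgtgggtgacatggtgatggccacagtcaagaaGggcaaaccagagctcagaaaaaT
RPL23: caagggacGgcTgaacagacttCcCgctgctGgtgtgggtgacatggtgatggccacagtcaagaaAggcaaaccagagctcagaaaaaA
At the other end, RPL9P9 (chr15:82372494-82372553, minus strand) and RPL9, coding bases 336 to 395, are shown around the only substitution in their alignment, 1 in 60 positions here.
RPL9P9: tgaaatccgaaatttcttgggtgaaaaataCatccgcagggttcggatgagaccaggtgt
RPL9: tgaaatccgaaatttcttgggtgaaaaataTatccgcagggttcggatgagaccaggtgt
RPL39P3 (chr6:73373111-73373263, minus strand) had the coding sequence of RPL39, bases 1 to 153, without a difference, and is therefore printed once with no capitals.
RPL39P3: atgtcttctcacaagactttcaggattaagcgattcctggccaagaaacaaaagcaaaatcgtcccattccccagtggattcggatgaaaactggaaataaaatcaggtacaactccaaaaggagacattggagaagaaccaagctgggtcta

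**Figure D1:**
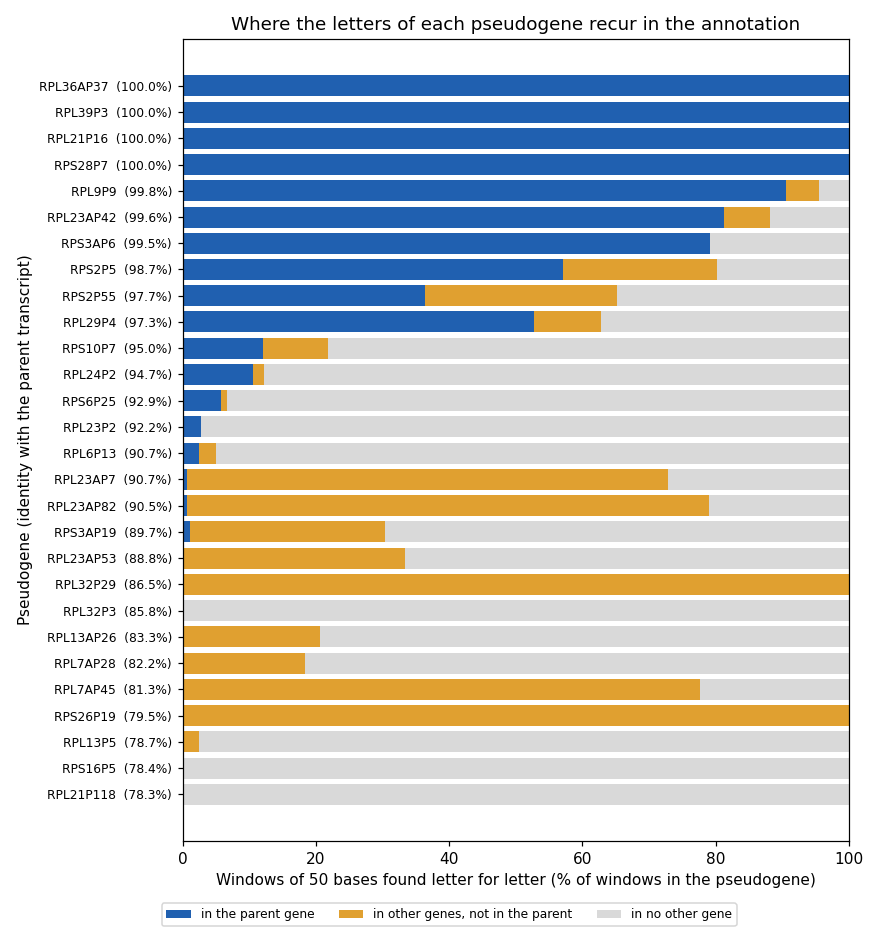
Share of the 50-base runs of 1 transcript of each of 28 pseudogenes (horizontal axis, percent of runs), ordered by identity with the parent transcript. Runs recur exactly in annotated transcripts of the parent gene (blue), of other genes but not the parent (orange), or of no other gene (grey). The 4 pseudogenes with 100% identity are blue throughout, whereas RPS26P19 and RPL32P29 are orange throughout because their letters lie inside exons of POLR2D and RPS29.

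The libraries held 20253656 to 22617613 counts, with totals that overlapped between the groups. A count above 0 was found for 22940 ± 216 features in DMSO and 23626 ± 205 in BPAF (SD, n = 3), without overlap. All 11 T-cell markers examined (CD3D, CD3E, CD3G, CD247, LCK, ZAP70, LAT, CD28, TRAC, TRBC1 and TRBC2) were tested and none was called. Their summed level was 3567 to 3640 CPM (counts scaled to library size) in DMSO and 3441 to 3606 in BPAF, against at most 24.0 CPM for the B-cell, monocyte, erythroid or fibroblast and epithelial lists in any library. In bulk RNA, fewer cells that hold a transcript and less of it per cell cannot be told apart.

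The members together took 0.168% ± 0.0137 of all counts in DMSO and 0.153% ± 0.000295 in BPAF (SD, n = 3), and the groups did not overlap. RPL9P9, a copy of the large-subunit gene RPL9, held 38.3% of the members' counts. With RPL23AP42, RPS2P5 and RPL36AP37 it made up 78.5%. Without RPL9P9 the shares were 0.0986% in DMSO and 0.0992% in BPAF and overlapped, so the separation of the groups was not seen without that row. DMSO replicate 3 had the highest CPM of the 6 libraries for 9 members and for 19 of the 20 parent genes. In the deposited TPM, which are scaled for gene length, the members took 1.08% ± 0.0800 in DMSO and 0.961% ± 0.0134 in BPAF.

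Between BPAF and DMSO, 4 of the 28 members rose and 2 fell, at an adjusted p under 0.05 in edgeR's quasi-likelihood test over 15490 genes. The background was 2.65% of tested genes called higher and 3.4% called lower. RPS26P19, RPS16P5, RPS3AP19 and RPL32P3 rose, and RPL36AP37 and RPL29P4 fell. The rises comprised 3 of 9 copies of small-subunit genes and 1 of 19 copies of large-subunit genes, and both falls were copies of large-subunit genes. The median log2 fold change was 0.05 over the members and 0.0019 over all tested genes. Above 0 were 15 members (53.6%) and 50.8% of all tested genes. In limma on the deposited TPM, which called 1 or 2 genes in the whole table, RPS26P19 was the only member called. All 3 BPAF libraries lay above all 3 DMSO libraries for 7 members and below them for 3, against 12.0% and 12.8% of tested genes.

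**Figure D2:**
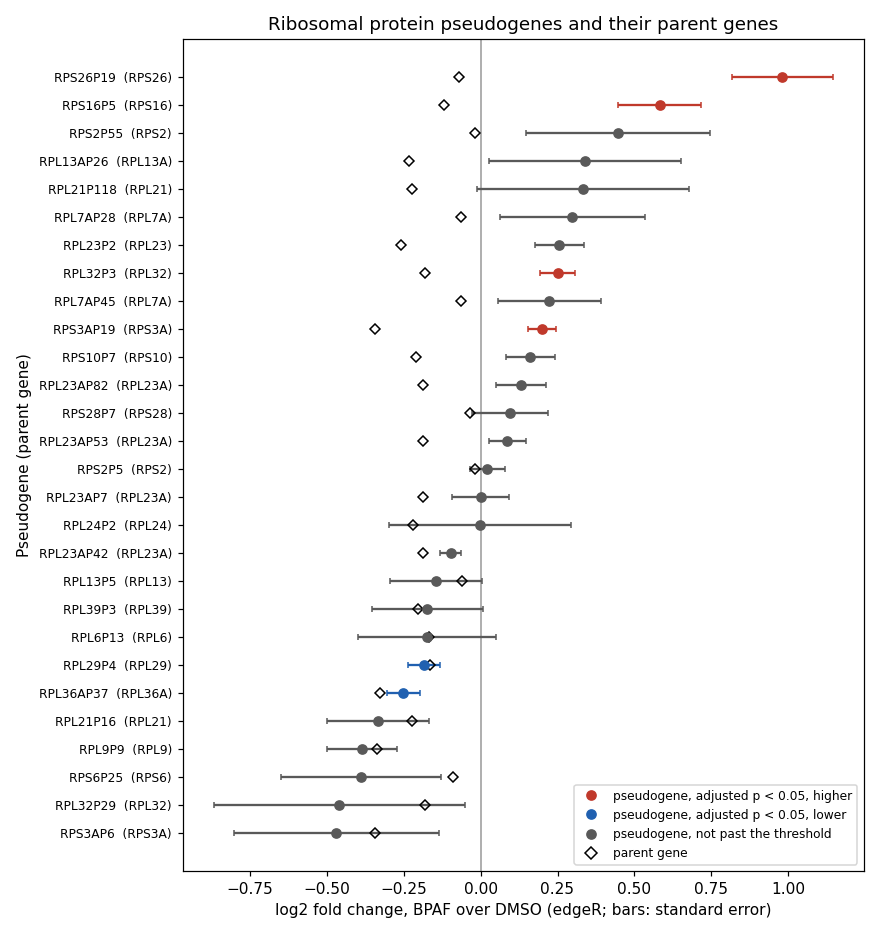
Log2 fold change of BPAF over DMSO (horizontal axis, edgeR) for 28 pseudogenes, each with its parent gene in parentheses. Circles are pseudogenes with standard error bars, red where called higher (4), blue where called lower (2) and grey where not called, and open diamonds are the parent genes, all of which lie below 0.

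RPS26P19, a processed copy of RPS26 on chromosome 2 (chr2:127846736-127847084, minus strand), had the largest change. Its level was 3.11, 2.63 and 2.97 CPM in DMSO 1 to 3 and 5.69, 6.37 and 5.18 CPM in BPAF 1 to 3. Every BPAF library was well above every DMSO library, by 0.98 ± 0.16 on the log2 scale (SE, edgeR adjusted p = 0.00162), a 1.97-fold rise on a mean count of 92.5. The call held in each fit that left out 1 library, with adjusted p from 0.00566 to 0.0145. RPS26, a protein of the small subunit near the exit of the messenger RNA channel, stood at 241, 237 and 251 CPM in DMSO and 233, 229 and 233 CPM in BPAF. All BPAF values of RPS26 were below all DMSO values, by 0.07 on the log2 scale, and it was not called (edgeR adjusted p = 0.197).

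By its position RPS26P19 is also part of another gene. All 349 of its bases lie in an untranslated exon of POLR2D, which encodes a subunit of RNA polymerase II, on the same strand, and 2 of 4 annotated POLR2D transcripts hold the whole copy. None of its 50-base runs occurred in RPS26, and the longest identical run was 17 bases, while all of them occurred in POLR2D. POLR2D itself stood at 140 ± 6.74 CPM in DMSO and 137 ± 4.88 CPM in BPAF (SD, n = 3), a log2 change of -0.03 that was not called (edgeR adjusted p = 0.716). Counts listed for RPS26P19 were 2.12%, 1.89% and 2.23% of those listed for POLR2D in DMSO 1 to 3, and 4.03%, 4.62% and 3.94% in BPAF 1 to 3. The share was thus higher in each BPAF library, whereas the sum of both rows, 143 ± 6.86 CPM in DMSO and 143 ± 5.24 CPM in BPAF, overlapped. Reads from this stretch can belong to either row, and no source used here says how they were assigned.

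**Figure D3:**
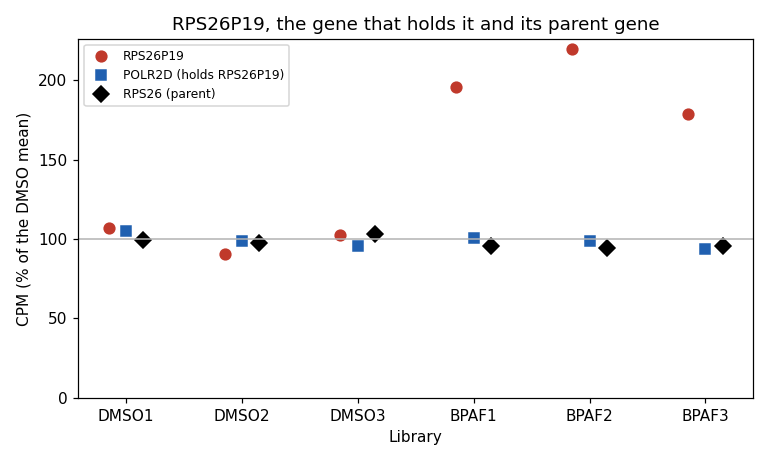
CPM of RPS26P19 (circles), of POLR2D, whose exon contains it (squares), and of the parent gene RPS26 (diamonds) in each of 6 libraries, as percent of the gene's own DMSO mean on the vertical axis. RPS26P19 was higher in every BPAF library than in any DMSO library, while POLR2D and RPS26 lay near 100% throughout.

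RPS16P5 is a transcribed processed copy of RPS16, a small-subunit gene, in an intron of ELOVL5 on the same strand (chr6:53336943-53337346, minus strand). It gave 4.90, 5.79 and 5.26 CPM in DMSO and 7.12, 7.65 and 9.06 CPM in BPAF. The groups did not overlap and differed by 0.58 ± 0.14 on the log2 scale (SE, edgeR adjusted p = 0.0140). It was 1 of 3 members with whole counts in all 6 libraries. None of its 50-base runs occurred in the annotated transcripts of any other gene, and introns were not searched. These runs cover the 404 annotated bases, and the row the authors counted may have another extent. ELOVL5, an elongase of polyunsaturated fatty acids, was at 565 ± 11.6 CPM in DMSO and 558 ± 19.2 CPM in BPAF and was not called (edgeR adjusted p = 0.798). RPS16 fell by 0.12 on the log2 scale (edgeR adjusted p = 0.0355), a call that did not hold without DMSO replicate 1 or BPAF replicate 3 either. Without DMSO replicate 1 or BPAF replicate 3, RPS16P5 had an edgeR adjusted p of 0.0730 and 0.0991, and in deposited TPM its log2 change was 0.29 with 1 added to each value, and not called.

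RPS3AP19 is a processed copy of the small-subunit gene RPS3A. Its 780 annotated bases lie in no other annotated gene (chr4:9563171-9563950, plus strand), with other pseudogenes left out of that search. In DMSO it had 67.8 CPM but 8.70 TPM on average, against 193 CPM and 410 TPM for RPS2P5 with 879 annotated bases. The row the authors counted may have another extent than these 780 bases, which was not tested. Position, identity and shared runs need not describe that row. Values of RPS3AP19 were 68.9, 64.0 and 70.5 CPM in DMSO and 78.4, 75.0 and 80.1 CPM in BPAF. These groups did not overlap and differed by 0.20 ± 0.05 on the log2 scale (SE, edgeR adjusted p = 0.0133). RPS3A was lower in every BPAF library, at 1411, 1370 and 1690 CPM in DMSO and 1157, 1203 and 1161 CPM in BPAF, but was not called (a log2 difference of -0.34, edgeR adjusted p = 0.132). Without DMSO replicate 3, where RPS3A was highest, it was called lower (edgeR adjusted p = 0.000104). RPS3AP19 shared 1.1% of its 50-base runs with RPS3A and 30.4% with any other gene, RPS3A included. Most runs were shared with AC073648.4 (152 runs) and RPS3AP15 (137 runs). The edgeR adjusted p was 0.0612 when DMSO replicate 2 was left out, and 0.0700 and 0.0745 when BPAF replicate 1 and BPAF replicate 3 were.

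RPL32P3, a transcribed unprocessed copy of the large-subunit gene RPL32, spans chr3:129382922-129399655 on the minus strand, and the annotation places the small nucleolar RNA SNORA7B inside it. Its levels were 49.6, 52.7 and 48.7 CPM in DMSO and 62.3, 53.9 and 63.2 CPM in BPAF. BPAF replicate 2 lay just above the highest DMSO library, and the groups differed by 0.25 ± 0.06 on the log2 scale (SE, edgeR adjusted p = 0.0150). The transcript compared with RPL32 has 275 of the 4504 exon bases of this row. Over all 8 annotated transcripts of RPL32P3, 0 of 4645 distinct 50-base runs occurred in the annotated transcripts of another gene. The edgeR adjusted p was 0.0783 and 0.0594 when DMSO replicate 1 and DMSO replicate 3 were left out, and 0.0901 and 0.0878 when BPAF replicate 1 and BPAF replicate 3 were.

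The 2 members that fell were close copies. RPL36AP37 (chr11:16974693-16975013, minus strand), in an intron of PLEKHA7, was letter-identical to the large-subunit gene RPL36A over its 321 bases. It gave 133, 131 and 152 CPM in DMSO and 118, 112 and 120 CPM in BPAF. All BPAF libraries were lower, a log2 difference of -0.25 ± 0.05 (SE, edgeR adjusted p = 0.0164). RPL36A fell too, from 250 ± 13.0 to 199 ± 2.58 CPM (SD, n = 3), by 0.33 on the log2 scale (edgeR adjusted p = 3.7e-05). PLEKHA7, which holds the copy, was at 49.4 ± 1.43 and 49.6 ± 1.51 CPM and was not called. Without BPAF replicate 1, 2 or 3 the edgeR adjusted p of RPL36AP37 was 0.0681, 0.0547 and 0.0667.

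RPL29P4 (chr6:117998975-117999448, plus strand) lies in an intron of SLC35F1 and was 97.3% identical to the large-subunit gene RPL29. It stood at 55.5, 49.7 and 51.9 CPM in DMSO and 44.7, 45.7 and 47.8 CPM in BPAF. The groups did not overlap, at a log2 difference of -0.19 ± 0.05 (SE, edgeR adjusted p = 0.0397). RPL29 fell by 0.17 on the log2 scale (edgeR adjusted p = 0.00386). The call of RPL29P4 held in 1 of 6 fits that left out a library (without DMSO replicate 2), was lost without each of the other 5 at an edgeR adjusted p of up to 0.187, and was lost under upper quartile scaling (0.0551) and in DESeq2 (0.0740).

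**Figure D4:**
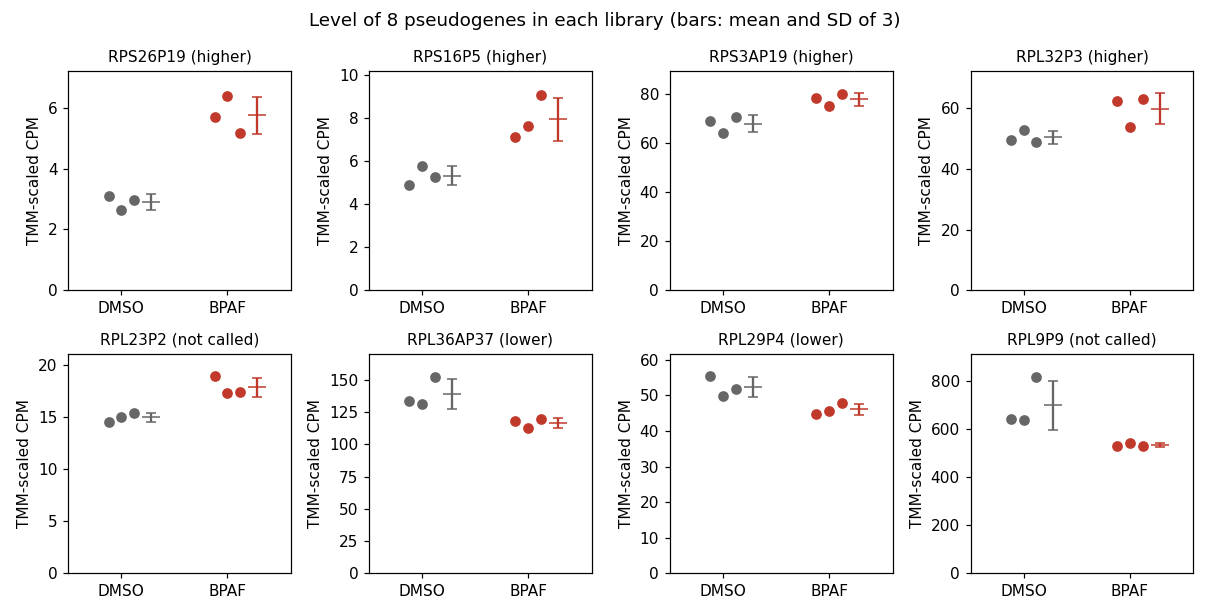
TMM-scaled CPM (vertical axes, from 0) of 8 pseudogenes in each DMSO (grey) and BPAF (red) library, with the mean and SD of 3 beside the points. In RPS26P19 the BPAF libraries are about 1.97-fold above the DMSO libraries, and in RPL9P9 the library DMSO replicate 3, at 816 CPM, stands above the other 5.

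The 3 members with the highest counts were not called. RPL9P9 (chr15:82372196-82372912, minus strand), 99.8% identical to RPL9 over the 579 of its 717 exon bases that were compared, gave 645, 638 and 816 CPM in DMSO and 530, 544 and 532 CPM in BPAF. All BPAF libraries were lower, but the 3 DMSO libraries spread widely, and the log2 fold change of -0.39 ± 0.11 (SE) was not called (edgeR adjusted p = 0.171). Without DMSO replicate 3 it was called lower (edgeR adjusted p = 6.56e-05), and DESeq2 called it lower with all 6 libraries (adjusted p = 0.0206). RPL9 was likewise lower in every BPAF library and highest in DMSO replicate 3, at 317, 310 and 388 CPM in DMSO and 269, 269 and 265 CPM in BPAF (a log2 difference of -0.34, edgeR adjusted p = 0.168).

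RPL23AP42, 99.6% identical to RPL23A, ranged from 316 to 351 CPM in DMSO and from 307 to 317 CPM in BPAF. Its groups overlapped and it was not called (log2 fold change -0.10, edgeR adjusted p = 0.0970). The annotation puts parts of it opposite to exons of LINC02067 and AC112491.1. RPS2P5, 98.7% identical to the small-subunit gene RPS2, ranged from 174 to 208 CPM in DMSO and from 191 to 200 CPM in BPAF, a log2 difference of 0.02 (edgeR adjusted p = 0.896). Among the other frequently counted members, RPL23P2 gave 14.5, 15.1 and 15.4 CPM in DMSO and 19.0, 17.3 and 17.5 CPM in BPAF. Its groups did not overlap, and it missed the threshold (log2 fold change 0.26 ± 0.08, edgeR adjusted p = 0.0612). RPL23AP53 and RPS10P7 overlapped between groups, with log2 fold changes of 0.09 and 0.16 (edgeR adjusted p = 0.465 and 0.271). In deposited TPM with 1 added their log2 changes were -0.33 and 0.66, and with 0.1 added -0.36 and 0.75, neither called (limma adjusted p of 0.575 and 0.582 for RPL23AP53, and of 0.206 and 0.212 for RPS10P7).

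The remaining 16 members lay between 0.637 and 18.3 CPM in every library, and none was called, with edgeR adjusted p of 0.309 or more. With no filter on low counts RPL21P16 was called lower (edgeR adjusted p = 0.0198). Their log2 fold changes ran from -0.47 for RPS3AP6 to 0.45 for RPS2P55, and 7 were above 0. RPS2P55 and RPL23AP82 had all BPAF libraries above all DMSO libraries, and the other 14 overlapped: RPL13AP26, RPL21P118, RPL7AP28, RPL7AP45, RPS28P7, RPL23AP7, RPL24P2, RPL13P5, RPL39P3, RPL6P13, RPL21P16, RPS6P25, RPL32P29 and RPS3AP6. RPL32P29 lies wholly, with 403 bases, in an untranslated exon of the small-subunit gene RPS29, which was not called (log2 fold change -0.24, edgeR adjusted p = 0.443). In RPL32P29 1 DMSO library stood apart, at 2.43 CPM against 0.915 and 0.828 CPM. RPL13AP26 has 26.8% of its bases in an untranslated exon of DUSP18.

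The parent genes were lower with BPAF or not called. Of 20 parents, 8 fell (RPL13A, RPL21, RPL23, RPL29, RPL36A, RPL6, RPS10 and RPS16) and none rose, with a median log2 fold change of -0.18. Of these 8, RPL13A, RPL23, RPL29, RPL36A and RPL6 were called lower without any 1 library, and none was called in TPM. RPS10 lost the call without BPAF replicate 1 (edgeR adjusted p = 0.0557) and BPAF replicate 3 (0.0655). For RPL21 the edgeR adjusted p was 0.0828 without DMSO replicate 1, and 0.117, 0.142 and 0.188 without BPAF replicates 1, 2 and 3 in turn. For RPS16 it was 0.121 and 0.122 without DMSO replicate 1 and DMSO replicate 3, and 0.108 and 0.177 without BPAF replicate 1 and BPAF replicate 3. All 82 ribosomal protein genes had 38 calls lower, none higher and a median of -0.17. Over all tested genes 2.65% were called higher and 3.40% lower, with a median of 0.0019. When each parent and its members were summed into 1 row, 8 of 20 sums fell and none rose, those of the same 8 parents. A sum does not depend on how reads were divided within it, but copies outside the members were not included. In DMSO 21 members had under 5% of the counts of their parent, so many sums nearly repeat the parent alone. In that fit 2.63% of all rows were called higher and 3.38% lower. Without DMSO replicate 2 13 sums fell, and without BPAF replicate 3 5 did.

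Direct comparison of pseudogene and parent used the ratio of their counts within each library, which needs no scaling between libraries. Over 318 pairs of a pseudogene and its parent of any gene family, limma called 1.89% higher with BPAF and 0% lower, and for 19.5% and 3.14% all BPAF libraries lay above or below all DMSO libraries. Among the 28 member pairs, 4 rose relative to the parent and none fell, 10 had all BPAF ratios higher and 1 had all lower. The median difference of log2 fold changes was 0.20 in the member pairs, of which 21 (75.0%) were above 0. In the other 290 pairs, which had no minimum mean count of 20, it was 0.11, and 183 (63.1%) were above 0. Of those pairs 2 were called, both higher (SMG1P3 and NSUN5P1). The 28 member pairs share 20 parents, so they are not separate observations.

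RPS3AP19 had 4.58% of the counts of RPS3A in DMSO and 6.64% in BPAF, a difference of 0.54 ± 0.07 on the log2 scale (SE, limma adjusted p = 0.000494). For RPS26P19 the share of RPS26 was 1.20% and 2.48%, a difference of 1.05 ± 0.17 (limma adjusted p = 0.00357). RPL23P2, which on its own was not called, went from 1.96% to 2.80% of RPL23, a difference of 0.51 ± 0.10 (limma adjusted p = 0.00881), with RPL23 falling by 0.26 on the log2 scale (edgeR adjusted p = 0.00256). RPL23, besides its place in the large subunit, binds MDM2, the ubiquitin ligase of p53.

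The share of RPS16P5 in RPS16 rose from 0.836% to 1.36%, a difference of 0.69 ± 0.16 (limma adjusted p = 0.0268). RPL32P3 against RPL32 differed by 0.42 ± 0.10 and missed the threshold (limma adjusted p = 0.0633). The calls of RPS26P19 and RPS3AP19 held without any 1 library, and in ratios of TPM that of RPS26P19 alone was made. That of RPL23P2 was lost without BPAF replicate 1 (limma adjusted p = 0.0748), and that of RPS16P5 without DMSO replicate 1 or DMSO replicate 3 (0.0752 and 0.0899). RPL32P3 passed without DMSO replicate 2 (0.0429), and also when BPAF replicate 2 (0.00921) or BPAF replicate 3 (0.00207) was left out. For near-identical copies the ratio was not called. No source used here gives the rule that divided reads matching both rows. The ratio therefore cannot decide whether such a copy and its parent changed apart. RPL36AP37 had 55.6% of the counts of RPL36A in DMSO and 58.7% in BPAF (limma adjusted p = 0.442), and RPL29P4 had 7.40% and 7.32% of RPL29 (limma adjusted p = 0.896). RPL9P9 had 207% and 200% of RPL9, with every BPAF ratio lower by little, and was not called (difference -0.05 ± 0.03, limma adjusted p = 0.382).

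Split at 97% identity with the parent, a value chosen after the results had been seen, the 10 closer copies had no rise, 2 falls and a median log2 fold change of -0.18. The 18 more diverged copies had 4 rises, no fall and a median of 0.18. These counts describe the members and were not tested against each other. Positions were compared with annotated genes other than pseudogenes. The 9 members wholly inside such a gene on the same strand had 2 rises and 2 falls. The 3 that overlap one in part or hold one (RPL32P3, RPS10P7 and RPL13P5) had 1 rise. The 5 with such a gene only on the opposite strand had no rise, and the 11 in no such gene had 1 rise.

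Other pseudogenes gave the following counts in the same fit. None of these classes had the members' minimum mean count of 20, so their calls are not at like abundance. The other processed pseudogenes also include ribosomal protein pseudogenes under that minimum, such as RPS3AP26 and RPL4P2. Of 252 other processed pseudogenes 4 rose and none fell, with a median log2 fold change of 0.09. In a list of 25 pseudogenes of other abundant genes, such as those for elongation factors and GAPDH, none was called and the median was 0.0077. Unprocessed pseudogenes had 38 rises among 339, no fall and a median of 0.13, and long non-coding RNAs had 103 rises and 11 falls among 1922 with a median of 0.17. Protein-coding genes had 231 rises and 511 falls among 12335, with a median of -0.010.

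The 2 deposited tables gave different orders of abundance relative to the parent. In counts, 1 member exceeded its parent on average in DMSO (RPL9P9). In TPM 3 did: RPL9P9 at 310%, RPL36AP37 at 375% and RPL23AP42 at 223%. RPS28P7 and RPL39P3, both letter-identical to short parent transcripts, had 3.62% and 1.18% of the parent's counts but 88.9% and 48.2% of its TPM. The opposite held, among others, for RPS3AP19, at 4.58% of counts and 0.271% of TPM, and for RPL32P3, at 8.19% and 0.908%. RPL23P2 was at 1.96% and 0.250%, and RPS16P5 at 0.836% and 0.216%. Whether the rows counted for RPS3AP19, RPL23P2 and RPS16P5 extend beyond the annotated exons used here was not tested. Over the members the median was 1.38% of the parent in counts and 0.854% in TPM. No source used here says how the TPM were made.

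**Figure D5:**
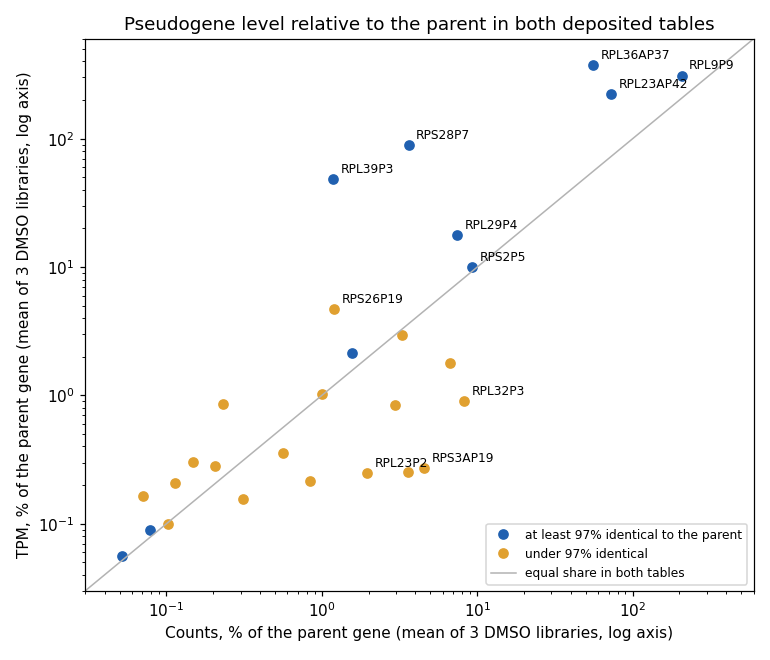
Level of each of 28 pseudogenes as percent of its parent gene, in deposited counts (horizontal log axis) and deposited TPM (vertical log axis), each the mean of 3 DMSO libraries. Copies at least 97% identical to the parent (blue) lie on or above the line of equal share, with RPL39P3 and RPS28P7 farthest above it. More diverged copies (orange) lie on both sides, such as RPS26P19 and RPL32P29 above and RPS3AP19, RPL23P2 and RPL32P3 below.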

How the data were processed

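Per the submitters' processing notes, the reads were handled with FastQC, cutadapt, HISAT2 and featureCounts on the human build GRCh38 (hg38), without versions. The authors deposited estimated counts per gene with decimals, and TPM values. The annotation behind both tables, how decimals arose, and how reads that match several copies or overlapping genes were divided could not be read from the sources used here.

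The rounded estimated counts of 3 DMSO and 3 BPAF libraries went into edgeR 4.0.16 (R 4.3.3), with filterByExpr as the filter, TMM scaling, robust dispersions and no covariate. Its quasi-likelihood p-values were adjusted over all 15490 genes (Benjamini-Hochberg), with a threshold of 0.05. The 192 unnamed loci took 0.248% of DMSO and 0.258% of BPAF counts and stayed in the table. CPM are TMM-scaled. A standard error is the log2 fold change divided by the square root of its F statistic. Ratios of pseudogene to parent, with 0.5 added to each count, were tested with limma 3.58.1 (trend, robust) over 318 pairs. P-values measure only the spread between these libraries. Library pairs differed by more than sampling noise (chi-square over its degrees of freedom, 2.39 to 7.70).

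Symbols came from a gene name table (42028 identifiers matched, 27 of the members) and from GENCODE release 29 (58396 matched, RPL9P9 by its name there), which also supplied classes, positions and transcripts. Sequences were aligned with Biopython 1.88. The members and lists were chosen with earlier results of these data known. Named were the called members, the 10 with the highest mean CPM, called pairs, their parents and the 2 members and candidates on each side of the count minimum of 20. The other 16 members are given so that each is accounted for. The main edgeR fit and the ratios of pseudogene to parent were also run on simulated counts, and no other fit was. Alternatives were each library left out in turn, other member criteria, a replicate block, a length and GC offset, limma-voom and limma on deposited TPM, DESeq2 1.42.0, scaling by RLE or upper quartile, and both a looser and a stricter filter.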

Additional observations from a re-analysis of the deposited data

How the results depend on the processing

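Among the members, 4 rises and 2 falls were also found with size factors (RLE), limma-voom and a filter at 1 CPM, with medians of 0.05 to 0.09. The length and GC offset gave 4 rises and 3 falls. Settings that changed only the member list relisted calls of the main fit. Of these, mean count minimums of 10 and 50 gave 4 rises and 2 falls. They could not remove a call, as every called member had a mean count of at least 92.5. Falls numbered 1 with upper quartile scaling, 4 with no filter on low counts, and 0 in deposited TPM with 1 or 0.1 added, among members with whole counts in all 6 libraries (3) and among those named in the annotation (20). Rises numbered 1 in TPM (RPS26P19) and among members with whole counts, and 2 among those named in the annotation and in DESeq2. TPM called 1 or 2 genes in the whole table, and DESeq2 gave an adjusted p for 7 members, RPS26P19 not among them. With DESeq2's filter off, an alternative chosen after seeing the data, 4 rose and 2 fell, the falls being RPL36AP37 and RPL9P9 (adjusted p = 0.0420) and not RPL29P4 (0.104). The median was 0.34 among members with whole counts. The difference of the members' share was -0.0142 percentage points in counts and -0.123 in TPM. In TPM, 1 member pair and 1 of all pairs were called and the median difference of pairs was 0.12. The cause of these differences was not tested, beyond the smaller number of members in some.

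Leaving out 1 library gave 1 to 4 rises (1 without BPAF replicate 3, 2 without DMSO replicate 1 or BPAF replicate 1), 0 to 3 falls (0 without any 1 of the BPAF libraries, 1 without DMSO replicate 1), a median of 4.39e-05 (without BPAF replicate 2) to 0.096, 3 to 5 called member pairs, 4 to 10 called pairs in all, a median pair difference of 0.16 to 0.25, and 5 to 13 lower family sums. Of 15740 to 15903 genes tested, these fits called 147 to 368 higher and 175 to 541 lower. The lowest counts, 147 and 175, were without BPAF replicate 1. With all 6 libraries the counts were 411 and 527 of 15490. The spread of each gene was estimated over both groups and moderated across genes.

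Libraries with the same replicate number did not deviate together (correlations 0.00101, -0.0432 and 0.0143), so the numbers were not taken as pairs. With the replicate block, 4 members rose and 1 fell (RPL29P4 at an edgeR adjusted p of 0.0548), 4 member pairs were called and 7 family sums were lower. Counts of the whole table ranged from 330 to 461 higher and from 400 to 514 lower over RLE, upper quartile scaling, limma-voom, the block and the length and GC offset.

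Some small values changed sign, all uncalled. In TPM with 1 and 0.1 added these were RPL23AP53 (-0.33 and -0.36), RPL23AP7 (0.26 and 0.29), RPL24P2 (0.036 and 0.039), RPS2 (0.053 in both), RPS26 (0.0033 in both), POLR2D (0.14 in both) and ELOVL5 (0.062 in both), and the pair differences of RPL23AP53 (-0.31) and RPL23AP42 (-0.0062). With the length and GC offset, RPS28P7 (-0.032), RPS2P5 (-0.0019) RPL23AP7 (0.059), ELOVL5 (0.012) and PLEKHA7 (-0.046) did, as did RPL23AP7 (0.010 and 0.0037) and RPL24P2 (0.0081 and 0.000255) with upper quartile scaling and the filter at 1 CPM, and PLEKHA7 (-0.00067) in DESeq2. With 1 library left out, ranges crossed 0 for RPS28P7 (-0.0050 to 0.19), RPS2P5 (-0.050 to 0.076), RPL23AP7 (-0.060 to 0.063), RPL24P2 (-0.16 to 0.093), RPL39P3 (-0.32 to 0.019), RPL6P13 (-0.37 to 0.060), RPL32P29 (-0.74 to 0.20), RPS2 (-0.043 to 0.027), POLR2D (-0.065 to 0.0055), PLEKHA7 (-0.016 to 0.027) and the pairs of RPS2P5 (-0.0089 to 0.083) and RPL29P4 (-0.074 to 0.021). RPL23AP42 was called lower without DMSO replicate 2 (edgeR adjusted p = 0.0170), with no filter (0.0405) and with the offset (0.0067). The falls with no filter were RPL36AP37, RPL29P4, RPL23AP42 and RPL21P16 (0.0198). Among the parents, RPL21 missed the threshold with RLE (0.0524), upper quartile scaling (0.0582) and limma-voom (0.104), and RPS16 with upper quartile scaling (0.0602) and the block (0.0829).

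Limits: members with a mean count near 20 give wide errors, and counts of near-identical copies depend on the authors' division of reads.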

Other observations

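With no count minimum, more of the 1588 named pseudogenes, the 28 members included, were detected with BPAF. A count above 0 was found for 272, 260 and 249 of them in DMSO 1 to 3 and for 288, 301 and 294 in BPAF 1 to 3. The groups did not overlap, and the number of all features above 0 differed in the same direction. The 28 members nevertheless held 98.1% ± 0.162 of the counts of these pseudogenes in DMSO and 97.6% ± 0.0595 in BPAF (SD, n = 3).

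Of 4 long RNAs that stay largely in the nucleus or act as non-coding RNAs, NEAT1 rose by 0.23 and KCNQ1OT1 by 0.42 on the log2 scale (edgeR adjusted p = 0.00629 and 0.00231), each with all BPAF libraries above all DMSO libraries. MALAT1 and NORAD overlapped between groups and were not called (edgeR adjusted p = 0.590 and 0.728). Their part in the pseudogene results was not tested.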
